A study of Homo sapiens with 6 samples.

Results

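The genes described here are those whose RNA level stood at least 2-fold above, or at least 2-fold below, the negative control both in HCT116 cells given GAS5 and in HCT116 cells given a YAP-specific siRNA. Counts were summed per gene symbol, sums whose largest group mean was below 20 were left out, each group was scaled to its total, and 2 was added before each log2 ratio to the control. Of 12959 genes kept, from 19871 symbols, 69 met the rule, of which 44 were higher in both groups and 25 were lower in both. The members were selected on these measured ratios, so the ratios are given as descriptions and carry no test. Both ratios of a gene were taken against the same control mean, so an unusually high or low control value moves both ratios the same way.

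HCT116 is an established colorectal cancer cell line. The 6 libraries fell into 3 groups of 2, the negative control (NC), GAS5 and siYAP. Per the labels, a GAS5 plasmid or a YAP-specific siRNA was transfected into the cells, and each group is entered there under an siRNA heading. What the NC cells received, which YAP siRNA was used and when RNA was taken are not given in the sources used here, so whether NC was handled like the other groups is not known here. Total RNA was sequenced with a strand-marking protocol. The deposited tables hold 1 mean count per group and transcript, not the separate libraries, so the spread between the 2 libraries of a group is not known here. No replicate error and no p-value can therefore be given, and the 95% intervals below cover counting error only. They rest on mean expected counts, doubled and rounded to whole reads. Error in how reads were allotted between names or copies is not covered, and reads copied by PCR are not independent molecules.

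YAP is a transcriptional co-activator that is held in the cytoplasm, and degraded, when the kinases of the Hippo pathway phosphorylate it. In the nucleus it binds TEAD factors, which recognise a short DNA motif, and raises genes of growth and matrix such as CTGF and CYR61. GAS5 is a long noncoding RNA known for limiting cell growth, and the study asked whether it acts through YAP. A gene moved alike by extra GAS5 and by less YAP would be a candidate for that shared route, which is why genes of this kind are of interest.

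Mean counts per library summed to 27206123 for NC, 25521577 for GAS5 and 26298036 for siYAP. The targeted gene, YAP1, had a scaled mean count of 3369 in NC, 2765 in GAS5 and 1446 in siYAP, a log2 ratio of -1.22 in siYAP. YTHDF3, an m6A reader that the study turns on, stood at 1495, 1670 and 1147 in the same order, so it passed 2-fold in neither group. CTGF stood at 77.0, 126 and 84.1, and CYR61 at 522, 1092 and 622, so both were lowest in NC and neither was a member. The counting interval of the siYAP log2 ratio of CTGF ran from -0.19 to 0.45, so its place above NC there is within counting error. Of 10 colorectal epithelial markers, 6 passed the count minimum, with KRT8 at 63271 or more in every group, while CDX1 was at 0 in all 3 groups and VIL1, GPA33 and CEACAM5 were below the minimum. Of 11 markers of other cell types, PTPRC, DCN and LUM were at 0 in every group. The highest was COL1A1, a collagen, at 366 in NC, 574 in GAS5 and 541 in siYAP. CD14 was the marker of another cell type that passed 2-fold, at 4.36 in NC, 38.7 in GAS5 and 3.01 in siYAP. RNA was taken from bulk cultures, so fewer expressing cells and less RNA per cell cannot be told apart.

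In each group alone, 1.70% of the genes kept were at least 2-fold higher in GAS5 than in NC, 0.741% were 2-fold lower in GAS5, 0.841% were 2-fold higher in siYAP and 1.14% were 2-fold lower in siYAP. The members make up 0.340% of genes on the higher side and 0.193% on the lower side. With each group in turn as the one apart, NC stood 2-fold away from both others in 69 genes, siYAP in 105 and GAS5 in 191. Another 10 genes moved 2-fold in opposite directions in GAS5 and siYAP. All these counts share a group between their ratios, so they describe where the 3 means lie and nothing is read from their sizes.

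**Figure D1:**
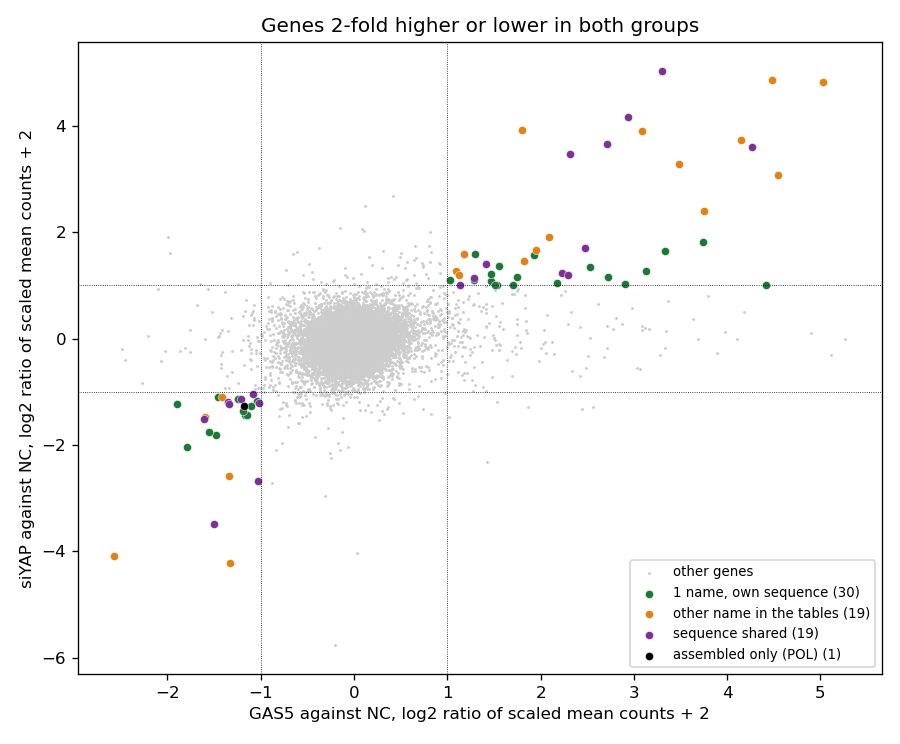
Each point is 1 of 12959 genes, with its log2 ratio of GAS5 to NC on the horizontal axis and of siYAP to NC on the vertical axis, both after adding 2 to the scaled mean counts, and dotted lines at 2-fold. The 69 members are coloured by class, and those in the upper right corner with the largest ratios in both groups are of the classes with another name or with shared sequence.

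The members fell into classes that the rule did not use. In 30 of them, 19 higher and 11 lower, the gene had 1 name in the tables and at least 95% of the 50-base stretches of its leading Ensembl transcript occurred in no other gene of GENCODE 29. In 19, 14 higher and 5 lower, another symbol in the same tables was a second name of the same gene. In a further 19, 11 higher and 8 lower, less than 95% of the stretches were particular to the gene. The remaining member, labelled POL, was made of assembled transcripts alone and had no reference sequence. Assembled transcripts carry no sequence here, so the check of stretches does not cover their counts. Of the 30, 20 also had assembled transcripts. In HAL, HMCN2, GFRA3, GAL3ST4 and IL1RAPL1 these held most of the NC counts. A second name was found for 27.5% of members and for 2.79% of the other 12890 genes. Of the 54 members with an Ensembl sequence, 63.0% reached 95% of unique stretches, compared with 82.5% of 12732 other genes. Symbols made of assembled transcripts alone, which carry the annotation of the nearest protein match, were 21.7% of members and 1.23% of other genes.

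Shared sequence can be seen in 2 members with an identical or near-identical copy. A read that covers only bases that are the same in both copies cannot be given to 1 of them. HBA1, alpha globin, lies beside HBA2 on chromosome 16, and the coding sequences of 426 bases differ at 0 positions. The first 60 coding bases are at chr16:176717-176776 for HBA1 and at chr16:172913-172972 for HBA2, both on the plus strand of GRCh38.
HBA1: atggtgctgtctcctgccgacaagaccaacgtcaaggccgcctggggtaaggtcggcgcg
HBA2: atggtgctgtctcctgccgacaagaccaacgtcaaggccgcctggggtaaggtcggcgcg
HSFX1 and HSFX2 are X-linked members of the heat shock factor family, and their coding sequences of 1269 bases differ at 1 position. It falls in the first 60 coding bases, at chrX:149774682-149774741 on the plus strand for HSFX1 and chrX:149594641-149594700 on the minus strand for HSFX2, and is in capitals.
HSFX1: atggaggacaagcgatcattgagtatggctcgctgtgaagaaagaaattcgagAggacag
HSFX2: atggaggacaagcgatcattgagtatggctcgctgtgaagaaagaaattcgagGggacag

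Among the 19 genes with 1 name and their own sequence that were higher in both groups, CXCL8 had the highest level, and LTA and TNFRSF9 are signalling molecules as well. CXCL8, which encodes interleukin-8, a chemokine that draws neutrophils, lies at chr4:73740506-73743716 and had a scaled mean count of 55.7 in NC, 378 in GAS5 and 127 in siYAP. Its log2 ratio was 2.72 in GAS5, with a counting interval of 2.48 to 3.06, and 1.16 in siYAP, with an interval of 0.86 to 1.52. A single transcript held 94.4% of its counts and alone stood at 52.98 in NC, 355 in GAS5 and 121 in siYAP. LTA, the TNF-family cytokine lymphotoxin alpha, stood at 0.48 in NC, 50.9 in GAS5 and 3.01 in siYAP. Its NC mean comes from 1 read over both libraries, and the interval of its siYAP log2 ratio ran from -0.41 to 8.16, so its place among the members on the siYAP side is within counting error. TNFRSF9, the costimulatory receptor also called 4-1BB, stood at 9.20, 29.9 and 20.5 in NC, GAS5 and siYAP. Its siYAP log2 ratio of 1.01 was among the nearest to the 2-fold line.

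EGR3, an immediate-early transcription factor of the early growth response family, stood at 35.3 in NC, 107 in GAS5 and 93.7 in siYAP. Its log2 ratios were 1.55 (interval 1.21 to 2.01) and 1.36 (1.01 to 1.82), and both intervals lay above 2-fold. Of 20 such genes on the list, all kept by the count minimum, FOS, FOSB, JUN, EGR1, EGR2, EGR3 and ATF3 passed 2-fold in GAS5, which makes 7, and EGR3 alone did so in siYAP, against 1.70% and 0.841% of all genes. JUN, the AP-1 subunit, stood at 379 in NC, 2328 in GAS5 and 596 in siYAP. EGR2, the nearest relative of EGR3 on the list, stood at 24.7, 92.9 and 45.1, a log2 ratio of 0.82 in siYAP.

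Enzymes of lipids, sugars and small molecules made up the next group. CA12, a carbonic anhydrase of the cell surface, stood at 42.6 in NC, 88.8 in GAS5 and 93.5 in siYAP, with intervals of the log2 ratio of 0.68 to 1.45 and 0.76 to 1.52. PLA2G4C, a phospholipase that releases fatty acids from membranes, stood at 23.2, 67.6 and 56.6. GAL3ST1, which adds sulfate to galactosyl lipids to make sulfatide, stood at 18.9, 49.0 and 43.1. For these 3 enzymes the GAS5 and siYAP intervals overlapped each other and both lay above that of NC. BAAT, which conjugates bile acids with glycine or taurine, stood at 2.90, 26.3 and 10.5, and HAL, the first enzyme of histidine breakdown, at 6.29, 25.8 and 16.5. ANPEP, the surface peptidase aminopeptidase N, stood at 1.94, 32.5 and 7.51. In BAAT and ANPEP the GAS5 level was more than 2-fold that of siYAP.

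Adhesion and carrier proteins and proteins of the germ line followed. FERMT3, kindlin-3, which activates integrins in blood cells, stood at 18.9 in NC, 66.1 in GAS5 and 40.1 in siYAP. Of its siYAP level, 36.4 lay on assembled transcripts that were at 0 in NC, while its Ensembl transcripts stood at 18.9, 55.1 and 3.71, below NC in siYAP. HPX, hemopexin, a plasma protein that binds heme, stood at 6.78, 37.7 and 16.0, and BAIAP2L2, which bends membranes toward protrusions, at 6.78, 22.2 and 16.5. HMCN2, hemicentin 2 of the extracellular matrix, stood at 5.33, 16.0 and 20.03, nearly all on assembled transcripts, and its Ensembl transcripts stood at 0.88, 1.58 and 0. CA12 and HMCN2 were the only 2 of the 19 with a siYAP level above that of GAS5. PIWIL4, an Argonaute protein of the germ-line piRNA route, stood at 7.75, 35.1 and 27.1, and SYCE2, a protein of the meiotic synaptonemal complex, at 10.7, 34.6 and 23.5. The Ensembl transcripts of PIWIL4 stood at 7.75, 19.9 and 2.20, so its siYAP level too was above NC through assembled transcripts alone. RASL10B, a small GTPase, was at 0 in NC, 24.8 in GAS5 and 5.01 in siYAP. Against the limit that 0 reads allow, taken as 3 reads over both libraries, its measured level was at least 17.1-fold higher in GAS5 and 3.45-fold in siYAP. Counting error of the treated group is not in these bounds. The intervals of its log2 ratios, which include it, began at 3.74 in GAS5 and 1.21 in siYAP. LSMEM1, a single-pass membrane protein, stood at 1.52, 33.5 and 9.02, and AC007906.2, a coding gene now called CHD9NB, at 5.60, 54.7 and 13.5. In LSMEM1 the NC mean comes from 3 reads, and the intervals of its log2 ratios were 2.92 to 6.84 in GAS5 and 0.86 to 5.04 in siYAP.

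**Figure D2:**
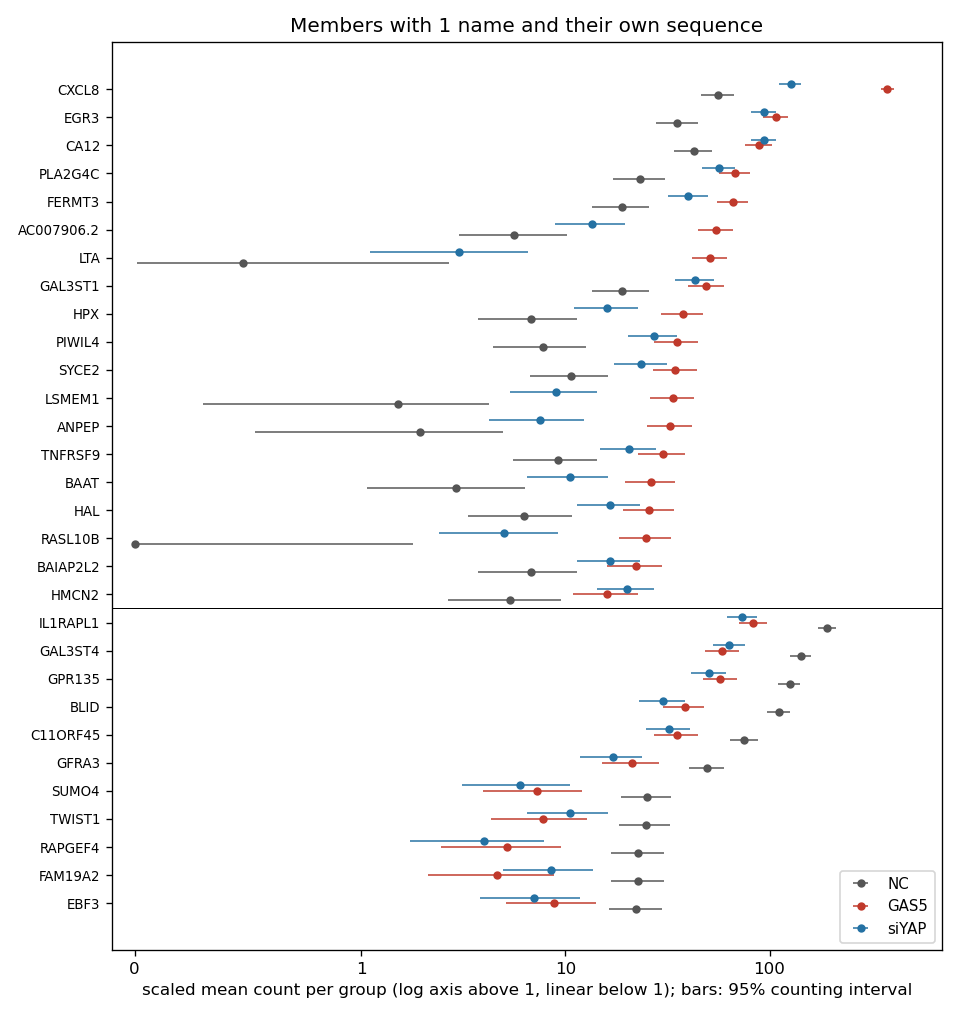
Scaled mean counts of the 30 members with 1 name and their own sequence, in NC (grey), GAS5 (red) and siYAP (blue), on an axis that is logarithmic above 1 and linear below 1, with bars for the 95% counting interval and a line between higher and lower members. CXCL8 reached 378 in GAS5, while most others stayed below 100 in every group.

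The 11 lower genes with 1 name and their own sequence began with proteins of the cell surface. IL1RAPL1, a synaptic adhesion protein of the interleukin-1 receptor family at chrX:28587399-29956723, stood at 192 in NC, 83.1 in GAS5 and 73.6 in siYAP. An assembled transcript held 59.1% of its counts and went from 130 in NC to 42.5 and 34.0, while its Ensembl transcript went from 62.7 to 40.6 and 39.7. The assembled transcript was matched to a protein of another species, and without it IL1RAPL1 was no longer 2-fold lower. GPR135, an orphan G protein-coupled receptor at chr14:59429022-59465342 with 1 transcript, stood at 125, 57.3 and 50.6. GFRA3, the receptor subunit that binds artemin, stood at 49.4, 21.2 and 17.0, of which 46.7, 21.2 and 15.5 lay on assembled transcripts.

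BLID, a small protein named for a BH3-like motif and for inducing cell death, at chr11:122115354-122116215, stood at 111 in NC, 38.4 in GAS5 and 30.2 in siYAP. Its intervals ran from -1.94 to -1.15 and from -2.32 to -1.47, both below a 2-fold decrease. GAL3ST4, a sulfotransferase of the same family as GAL3ST1, stood at 142, 58.7 and 63.5, so the family had 1 member higher and 1 member lower in both groups. An assembled transcript held 72.0% of the counts of GAL3ST4, and on its Ensembl transcripts alone the gene stood at 26.7, 16.1 and 31.1, above NC in siYAP. SUMO4, a small ubiquitin-like modifier, stood at 25.2, 7.22 and 6.01, and RAPGEF4, a cAMP-activated exchange factor for Rap, at 22.8, 5.16 and 4.01. The intervals of RAPGEF4 lay below a 2-fold decrease in both groups. TWIST1, a transcription factor of mesoderm and of epithelial-mesenchymal transition, stood at 24.7, 7.74 and 10.5. EBF3, a transcription factor of neurons, stood at 22.3, 8.77 and 7.01. FAM19A2, a secreted chemokine-like protein, stood at 22.8, 4.64 and 8.51, and C11ORF45 at 74.8, 35.3 and 32.2. In none of the 11 were the GAS5 and siYAP levels 2-fold apart, though the rule holds both levels below NC. On Ensembl transcripts alone, 7 of the 30 members of this class were not 2-fold apart from NC in both groups, namely FERMT3, HMCN2, HPX, PIWIL4, GAL3ST4, GFRA3 and IL1RAPL1, and in FERMT3, HMCN2, PIWIL4 and GAL3ST4 the direction turned in siYAP.

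Over the 69 members, the GAS5 and siYAP levels were within 2-fold of each other in 48. GAS5 had the higher ratio in 32 of the 44 higher members and in 17 of the 19 with 1 name and their own sequence. The rule holds both levels on 1 side of NC. Of all genes, 1.70% were 2-fold higher in GAS5 against 0.841% in siYAP. The same counts were not made over all genes, so nothing is read from their sizes. The median log2 difference between GAS5 and siYAP was 0.33 over the 44 and 0.03 over all genes. Median log2 ratios of the 44 were 2.20 in GAS5 and 1.44 in siYAP, and those of the 25 lower members were -1.34 and -1.36, beside medians of -0.03 and -0.04 over all genes. With members at 0 in 1 group set to their bound, the medians of the 44 were 2.20 and 1.44 and those of the 25 were -1.34 and -1.36.

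Many of the largest ratios belonged to genes counted under 2 names. The bounds given below for members at 0 hold for the counts of that symbol alone, since reads may have been allotted to another name or copy. They take the level of the group above 0 as measured, so its counting error is not covered. LARGE2, a glycosyltransferase that extends the sugar chain of dystroglycan, at chr11:45921621-45929096, had the highest level among the 44, at 185, 793 and 702 for NC, GAS5 and siYAP. Its older name GYLTL1B, which in these tables is 1 assembled transcript, stood at 1017, 615 and 924. Added together, the gene stood at 1201, 1408 and 1626, with log2 ratios of 0.23 and 0.44. Of its own transcripts, ENST00000325468 was at 0 in NC, 192 in GAS5 and 214 in siYAP.

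PIP4P2, a phosphatase of membrane phosphoinositides, stood at 3.05 in NC, 116 in GAS5 and 40.7 in siYAP. Its older name TMEM55A stood at 230, 82.5 and 235, and the sum at 233, 198 and 276. GPR56, an adhesion receptor now called ADGRG1, was at 0 in NC, 63.1 in GAS5 and 54.5 in siYAP, which is at least 43.5-fold and at least 37.5-fold higher. The symbol ADGRG1 stood at 2224, 1307 and 2604, so GPR56 held a small part of the gene in every group. PCNX, pecanex, was at 0, 33.4 and 24.6, at least 23.0-fold and at least 16.9-fold higher, while PCNX1 stood at 3462, 3129 and 3270. SMIM11A, a small membrane protein, was at 0, 42.6 and 55.8, at least 29.3-fold and at least 38.4-fold higher, and its copy SMIM11B stood at 160, 124 and 83.6. With both and SMIM11 added, the log2 ratios were 0.09 and -0.20.

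On the lower side, SGK223, a pseudokinase now called PRAG1, stood at 571 in NC, 226 in GAS5 and 28.7 in siYAP as 1 assembled transcript. The symbol PRAG1 stood at 881, 821 and 2021, and the sum at 1451, 1047 and 2049, so in siYAP the summed gene lay above NC. CD97, an adhesion receptor now called ADGRE5, stood at 32.0, 3.72 and 0, at least 21.3-fold lower in siYAP, while ADGRE5 stood at 3153, 2646 and 3835. In both pairs the name that was lower held less than the other name in every group.

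The other members with a second name were B3GALTL (B3GLCT), C11ORF57 (NKAPD1), C14ORF79 (CLBA1), C9ORF156 (TRMO), DDX26B (INTS6L), DGCR14 (ESS2), EPT1 (SELENOI), MIGA2 (FAM73B) and NECTIN4 (PVRL4) on the higher side. On the lower side they were C16ORF13 (METTL26), C19ORF68 (ZSWIM9) and LRRC16B (CARMIL3). SMIM11A added to SMIM11 alone stayed 2-fold higher in both groups, at 3.45, 49.6 and 58.7, and was no longer so with its copy SMIM11B. None of the others was 2-fold apart from NC in the same direction in both groups after its names were joined, and 16 of the 19, SMIM11A with SMIM11B included, had log2 ratios within 0.5 of 0 in both groups. NECTIN4, a cell adhesion protein, stood after joining at 31.0, 27.4 and 87.1 for NC, GAS5 and siYAP, so it stayed higher in siYAP alone. LRRC16B, an actin regulator, stood at 68.3, 33.0 and 58.6, lower in GAS5 alone.

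Of the 19 members with shared sequence, 14 had a gene in the tables that holds at least 50% of their stretches. AC008878.3, a locus named only by its clone, whose sequence is nearly all in ARHGEF18 as well, was at 0 in NC, 17.7 in GAS5 and 63.3 in siYAP, at least 12.2-fold and at least 43.6-fold higher. ARHGEF18 stood at 1514, 1701 and 1851, and the sum had log2 ratios of 0.18 and 0.34. HBA1 was at 0, 36.4 and 22.3, at least 25.1-fold and at least 15.3-fold higher, and HBA2 stood at 24.2, 14.1 and 40.3. Alpha globin from both genes stood at 24.2, 50.6 and 62.6, with log2 ratios of 1.00 and 1.30. The pair thus stayed 2-fold higher when joined, but only at the line in GAS5, and no counting interval was made for the sum. NPIPA7, of the nuclear pore-interacting repeat family, stood at 20.6, 5.95 and 0, at least 13.7-fold lower in siYAP, while the family members joined with it gave 730, 836 and 639.

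CDRT4, a gene of the region duplicated in Charcot-Marie-Tooth disease, at chr17:15436015-15503608, stood at 182 in NC, 77.0 in GAS5 and 81.2 in siYAP. With the read-through transcript TVP23C-CDRT4 added it stood at 189, 76.9 and 81.2, so it stayed 2-fold lower in both groups. The other members joined with a copy were AC073264.3 with TCAF2, AC073896.1 with CNPY2, AC097637.1 with TLR9, AP001781.3 with ALG9, FP565260.7 with TRAPPC10, HSFX1 with HSFX2, PLA2G4B with JMJD7-PLA2G4B, SULT1A3 with SULT1A4, TNFSF12-TNFSF13 with TNFSF13 and Z98749.3 with CSNK1E. None of these stayed 2-fold apart in both groups. STRC, stereocilin of the inner ear, stood at 33.9, 9.81 and 10.5, and 79.1% of its stretches are also in the pseudogene STRCP1, which has no symbol in the tables. CERS1, LRRC26, MTCP1 and PCDHGB7 likewise had no copy to join.

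In all, 33 members could be joined with another name or a copy, and 31 of them were then no longer 2-fold apart from NC in the same direction in both groups. In 26 of the 33 both log2 ratios were within 0.5 of 0. Where the other entry was far larger, as with CSNK1E at 2197 in NC beside Z98749.3 at 2.36, the member could not make the sum 2-fold apart. Such losses follow from the size of the other entry, and a gene that shares sequence need not be the same gene. HBA1, at the 2-fold line in GAS5 once joined, and CDRT4 were the 2 that remained. This leaves 38 of the 69 members, 22 higher and 16 lower. Over the 10362 genes of the whole table with 1 name and at least 95% of unique stretches, 0.183% were higher and 0.106% lower in both groups, beside 1.33% that were 2-fold higher in GAS5 and 0.569% in siYAP.

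**Figure D3:**
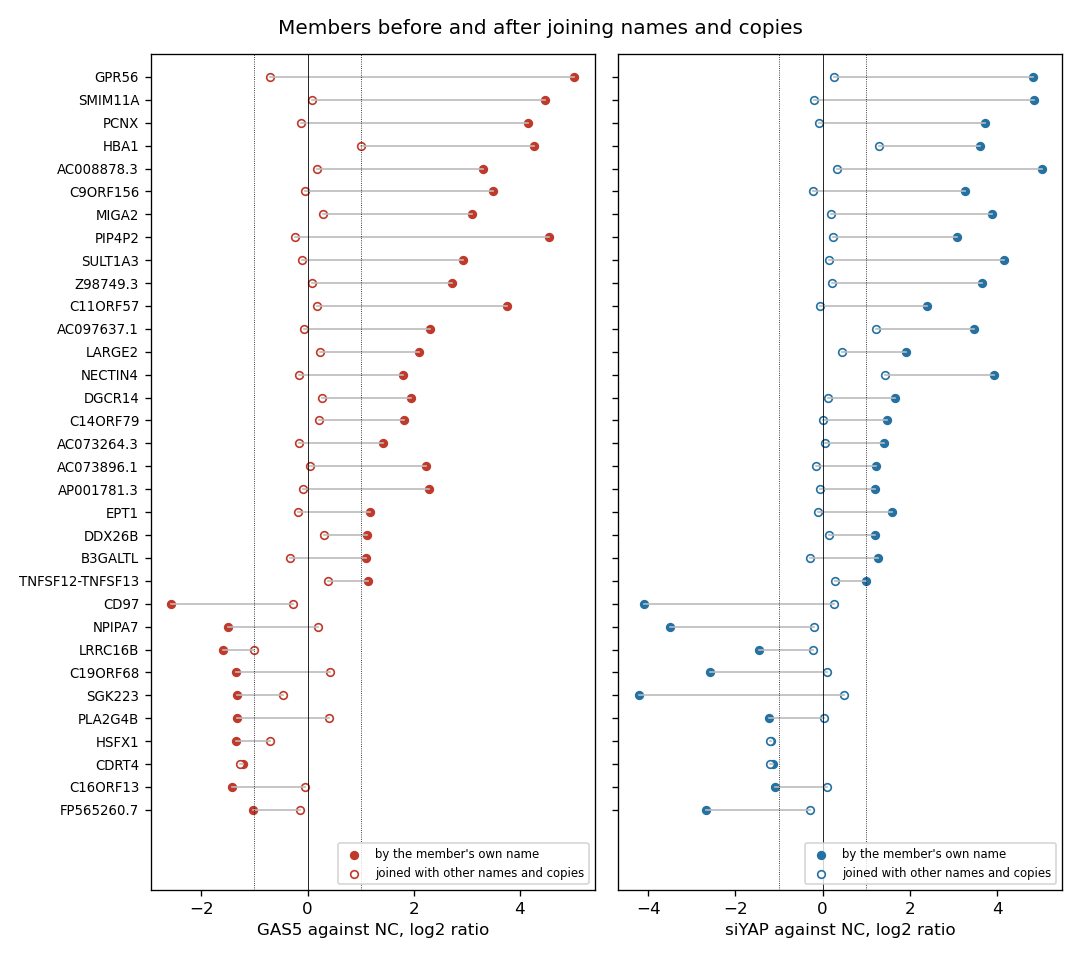
Log2 ratio to NC of the 33 members that could be joined, in GAS5 (left) and siYAP (right), by the member's own name (filled) and after adding its other names and the genes that share its sequence (open). Most open points lie near 0, and only HBA1 and CDRT4 stay past the dotted 2-fold lines in both panels. Where the added entry is far larger than the member, the open point mostly shows the added entry.

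POL had the highest level of all members, at 2315 in NC, 1018 in GAS5 and 966 in siYAP. This symbol gathers 6 assembled transcripts whose descriptions name different proteins, among them an endogenous retrovirus Pol-like protein. The leading one, with 74.0% of the counts and a description as a Wnt-9b protein, stood at 1832, 694 and 657, and the next at 384, 278 and 248. The symbol therefore does not stand for 1 gene, and the 2-fold difference came from the leading transcript.

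Members were mostly genes with few counts. Of the 69 members, 58 stayed below a scaled mean of 100 in every group, and 42 below 50. Among all genes, 5.01% of 839 genes below 50 were members, 2.33% of 686 genes from 50 to below 100, 0.256% of 3127 genes from 100 to below 500, and 0.0361% of 8307 genes above that. In 25 members a single transcript held all counts, and in 11 of the 44 higher members NC was at 0. Both counting intervals lay beyond 2-fold in 23 members, of which 13 had another name and 5 shared sequence, leaving EGR3, RASL10B, BLID, RAPGEF4 and POL.

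**Figure D4:**
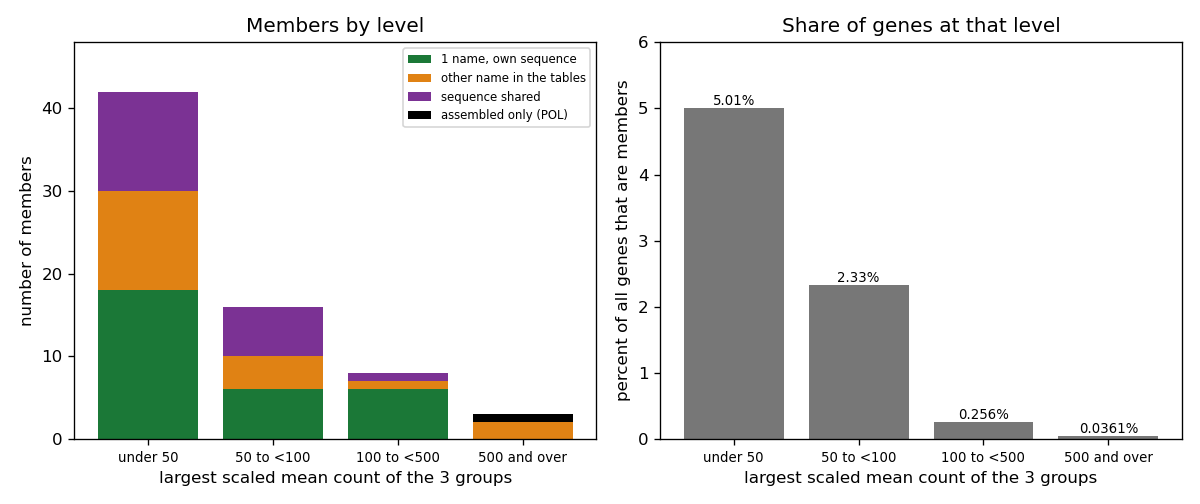
Left, the number of members by the largest scaled mean count of the 3 groups, stacked by class; right, the percent of all genes at that level that are members. The share goes from 5.01% of genes below 50 to 0.0361% of genes at 500 and over.

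At the 2-fold line, the members just inside on the higher side were TNFSF12-TNFSF13 with 22.03, 50.9 and 46.3 in NC, GAS5 and siYAP, TNFRSF9 and FERMT3. Just outside were TMEM160 with 42.6, 117 and 86.1, SLC22A20 with 31.5, 63.0 and 64.1, and NLRP7 with 4.84, 21.2 and 11.0. On the lower side, MTCP1 with 27.4, 12.5 and 10.7, FP565260.7 with 96.8, 46.4 and 13.5, and PCDHGB7 with 63.9, 29.1 and 30.1 were just inside. IKBKAP with 501, 252 and 216, SOWAHD with 26.1, 12.4 and 12.0, and FAM241A with 2958, 1411 and 1540 were just outside. FAM241A had more counts than any member and missed the line by 0.06 on the log2 scale in siYAP.

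No gene of the YAP lists was a member, beside 0.340% of all genes higher and 0.193% lower in both groups. At those shares lists of this size would mostly hold none, so nothing is read from that. Of 18 YAP-TEAD target genes kept, CYR61 was 2-fold higher in GAS5, none passed in siYAP and 0 were members. Their median log2 ratios were 0.01 in GAS5 and 0.18 in siYAP, beside -0.03 and -0.04 over all genes. Of 24 genes of the Hippo pathway, YAP1 itself, lower in siYAP, was the 1 that passed. Of 18 m6A genes, KIAA1429, a subunit of the methyltransferase, was the 1 that passed, at 115 in NC, 82.5 in GAS5 and 42.8 in siYAP. These levels are of the symbol KIAA1429 alone. Names were not joined for the lists, so its ratio need not be that of the whole gene. None of these lists had a member.

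Interferon-stimulated genes were mostly 2-fold higher in GAS5 and had 0 members. Their list was chosen with earlier results of these data known. Of all genes, 0.340% were higher and 0.193% lower in both groups, so 0 members in a list of this size is near that share. Of 44 kept, 32 were 2-fold higher in GAS5, 0 were 2-fold higher in siYAP and OAS2 was 2-fold lower in siYAP. The shares over all genes were 1.70%, 0.841% and 1.14% in the same order. Among the 32 were IFIT1, IFIT2, IFIT3, IFI6, IFI27, IFI35, IFI44, IFI44L, IFITM1, OAS1, OAS2, OAS3, OASL, MX1, ISG15, USP18, HERC5, HERC6, DDX58, IFIH1, IRF7, IRF9, BST2, RSAD2, CMPK2, PARP9, DTX3L, PARP14, SAMD9, TRIM21 and EIF2AK2. Their median log2 ratio over the 44 was 1.74 in GAS5 and 0.03 in siYAP. CXCL8, LTA and TNFRSF9, which can also be raised during innate immune signalling, had their largest level in the same group. That is not particular to them, since GAS5 lay above siYAP in 17 of the 19 higher members of their class. Whether CXCL8, LTA and TNFRSF9 share a source with the interferon-stimulated genes was not tested. None of 20 p53 target genes and none of 17 genes of the amino acid and unfolded protein response passed 2-fold in either group. Of 12 replication-dependent histone genes, HIST2H2AA3 was lower in GAS5 and 0 were members.

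Promoter windows were found for 43 members in the RefSeq table of GRCh38.p14, 27 higher and 16 lower, and the 300 bases of each, of which 50 lie past the start, were searched on both strands for 4 motifs. The TEAD core GGAATG was in 3 of 27 higher (11.1%) and 2 of 16 lower members (12.5%), beside 14.0% of all 27305 promoters. The AP-1 motif TGANTCA was in 3 of 27 higher members (11.1%) and 0 of the 16 lower members, beside 7.8% of all. The interferon response motif, written as a pair of GAAA blocks with any bases between them, was in 0 of 27 and 1 of 16, beside 3.6%, and TATAAA was in 3 of 27 and 1 of 16, beside 12.0%. The AP-1 matches were in CXCL8, TNFRSF9 and HMCN2, all of the class with 1 name and its own sequence. The parts of the windows of CXCL8 (chr4:73740369-73740505, plus strand) and HMCN2 (chr9:130265560-130265759, plus strand), which end before the first annotated base of the gene, are shown with the AP-1 match in capitals. The window of CXCL8 also held TATAAA, past the end of the printed part.
CXCL8: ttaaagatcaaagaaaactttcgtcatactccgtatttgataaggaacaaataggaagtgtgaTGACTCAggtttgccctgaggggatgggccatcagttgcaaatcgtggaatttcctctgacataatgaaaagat
HMCN2: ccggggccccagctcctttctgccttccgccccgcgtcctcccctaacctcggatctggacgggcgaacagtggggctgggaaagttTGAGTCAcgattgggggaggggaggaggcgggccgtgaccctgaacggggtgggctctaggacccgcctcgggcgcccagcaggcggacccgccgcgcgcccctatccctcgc
A match of letters is a description and not a measured binding site, and the shares were not tested against each other.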

How the data were processed

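Total RNA of HCT116 cells was sequenced in 6 libraries, 2 each of NC, GAS5 and siYAP, on a strand-marking protocol. Per the submitters' processing notes, TopHat2 2.1.1 was used; the genome build and the counting tool are not given in the sources used here. The authors deposited 2 tables of 92866 transcripts, with 1 mean expected count and 1 mean FPKM per group, and the NC columns of both tables were identical. FPKM at 0 is entered as 0.001 there and was read as 0. The deposited log2 fold changes, p-values and FDR values of the authors' own comparisons were not used. A total of 12002 transcripts were assembled by the authors and carry the annotation of a protein match.

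Expected counts were summed by symbol, scaled to group totals and compared after adding 2, with a minimum of 20 for the largest sum. The counts were not rounded for the ratios and no count model was fitted, since a group has 1 value. For counting intervals (Poisson for a level, Clopper-Pearson on the split of reads for a ratio, 95%), means were doubled and rounded to whole reads. A gene at 0 was bounded at 3 reads over both libraries. This covers neither how reads were allotted between names or copies nor the counting error of the group above 0. Second names were joined through Ensembl identifiers of GENCODE 29, RefSeq protein accessions and older symbols, and 488 transcripts were unmatched. Values were given for members that reach 100 in a group, the 5 in each direction with the largest smaller ratio, the 3 genes on each side of the line, and, chosen after their values were seen, the others with 1 name and their own sequence. The members and gene lists were chosen with earlier results of these data known. Scripts were tested on simulated data. R 4.3.3, edgeR 4.0.16 and DESeq2 1.42.0 gave the alternative scalings, and Python 3.11.15, pandas 2.3.3 and SciPy 1.17.1 the rest.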

Additional observations from a re-analysis of the deposited data

How the results depend on the processing

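The 44 higher and 25 lower genes became 45 and 23 with edgeR TMM or DESeq2 size factors, with 67 of the 69 among them, 49 and 26 with 0.5 added, and 44 and 25 with the symbols of the GAS5 table. With no minimum they were 132 and 89, with a minimum of 100 they were 4 and 7, and with 10 added they were 17 and 13. On mean FPKM with 0.1 added they were 24 and 12, and on Ensembl transcripts alone 88 and 49, of which 41 were among the 44 members that could then be tested. Of the 19 and 11 genes with 1 name and their own sequence, 6 and 4 stayed on mean FPKM, 4 and 6 with 10 added, and 13 and 5 on Ensembl transcripts, where the minimum also removed some. On mean FPKM, GPR135 (-0.98) and POL (-0.96) missed 2-fold in GAS5, GAL3ST4 (-0.63) and STRC (-0.92) in siYAP, and PCNX (0.96 and 0.77) in both. In genes with unique stretches they were 23 and 11, and with both counting intervals beyond 2-fold 17 and 6. A further 2 alternatives were chosen after seeing the data. Joining names over the whole table gave 32 and 21, and joining the members also with their copies left 22 and 16.

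With a minimum of 100, the genes 2-fold higher and lower were 84 and 30 in GAS5 and 29 and 61 in siYAP, NC stood apart in 11 genes, GAS5 in 77 and siYAP in 34, and 8 members were within 2-fold between treatments. With 10 added, GAS5 had 51 lower and siYAP 59 higher and 86 lower, and NC stood apart in 30, GAS5 in 126 and siYAP in 46. On mean FPKM NC stood apart in 36. The causes were not tested. Of the 30 with 1 name and their own sequence, CXCL8, EGR3 and BLID were members under every planned setting, except that the siYAP interval of CXCL8 reached below 2-fold. RAPGEF4 stayed in all settings that tested it, which excludes a minimum of 100 and Ensembl transcripts alone. SUMO4 and PIWIL4 also stayed wherever tested, but not by the counting intervals. On Ensembl transcripts alone PIWIL4 fell below the minimum and was not tested. It stood there at 7.75 in NC, 19.9 in GAS5 and 2.20 in siYAP, so it was below NC in siYAP. No direction of a named gene past 2-fold turned under TMM or FPKM, and on Ensembl transcripts alone 4 of the 30 with their own sequence turned in siYAP.

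No paired analysis was possible because every group is deposited as a single mean of its 2 libraries, so neither a replicate block nor leaving out a library was run. Depth limits the rest, since 58 of 69 members had fewer than 100 scaled counts in every group.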
